A study of Mus musculus with 11 samples.

Results

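The expression of 10 genes of the autophagy machinery (*Sqstm1*, *Map1lc3a*, *Map1lc3b*, *Gabarapl1*, *Ulk1*, *Becn1*, *Atg5*, *Atg7*, *Atg12* and *Wipi1*) was examined in RNA-Seq libraries of mouse hepatocytes that lack XBP1. The genes were chosen by name from the 54232 genes counted in each library, and all 10 were among the 13303 genes that passed the filter on low counts and were tested. The libraries came from adult male mice on a C57BL/6 background, either *Xbp1* LKO mice, in which Cre driven by the albumin promoter deletes *Xbp1* in hepatocytes, or *Xbp1* fl/fl control mice, which carry the floxed allele without that deletion. Mice of both genotypes ate chow, or a Western diet with sugar added to the drinking water (the high fat sugar diet, HFS), for at most 6 weeks, and hepatocytes were purified on Percoll. On chow there were 3 control libraries and 2 *Xbp1* LKO libraries, each made from 1 mouse. On the HFS diet there were 3 of each genotype, and every library was a pool of 2 mice, so diet and pooling cannot be told apart. The genotypes are called fl/fl and LKO below.

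Autophagy delivers cytoplasm and organelles to the lysosome inside a double membrane, the autophagosome, and in the liver it supplies nutrients during fasting and removes lipid droplets, mitochondria and portions of the endoplasmic reticulum. The kinase ULK1 starts the process, a lipid kinase complex that holds Beclin 1 marks the growing membrane, and WIPI proteins read that mark. ATG7 then activates both ATG12 and the ATG8 proteins (the LC3 and GABARAP families), ATG12 is joined to ATG5, and this conjugate helps to attach the ATG8 proteins to the membrane, where they hold cargo receptors such as p62, the product of *Sqstm1*. XBP1 is a transcription factor of the unfolded protein response of the endoplasmic reticulum. Transcript counts do not measure autophagic flux, since most of these proteins are regulated after transcription and p62 is itself degraded by autophagy.

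Promoters from RefSeq (GRCm38.p6, 250 bases before and 50 after each start site) were available here for 7 of the 10 genes and for 94 of the 110 other autophagy and lysosome genes described below (the wider genes). The E-box core CACGTG, which reads the same on both strands and is bound by MiT/TFE factors among others, was found in *Atg5* and *Atg7* among the 7, in 20.2% of the wider genes and in 8.09% of the 27025 genes with a promoter in the table. The core of the antioxidant response element, TGACNNNGC on either strand, was found in *Map1lc3b*, in 21.3% of the wider genes and in 14% of all genes. The unfolded protein response core TGACGTG and the C/EBP-ATF composite TGATGNAA, also searched on both strands, were found in 0 of the 7, in 4.26% and 3.19% of the wider genes, and in 2.22% and 4.51% of all genes. The 250 bases before the start site are shown for *Atg5*, the autophagy gene with a CACGTG whose libraries did not overlap between genotypes on either diet, and for *Lamp1* and *Tpp1*, lysosomal genes whose transcripts fell. Capitals mark the matches: a CACGTG beginning 14 bases before the start site in *Atg5* (chr10:44268089-44268338, plus strand), 4 copies of CACGTG beginning at -61, -45, -28 and -15 in *Lamp1* (chr8:13158911-13159160, plus strand), and a TGACNNNGC at -47 on the opposite strand in *Tpp1* (chr7:105752236-105752485, minus strand). *Tex264*, whose transcripts also fell, had no match to any of these motifs in its 2 listed promoters. A match is a stretch of letters, not evidence of binding.
Atg5: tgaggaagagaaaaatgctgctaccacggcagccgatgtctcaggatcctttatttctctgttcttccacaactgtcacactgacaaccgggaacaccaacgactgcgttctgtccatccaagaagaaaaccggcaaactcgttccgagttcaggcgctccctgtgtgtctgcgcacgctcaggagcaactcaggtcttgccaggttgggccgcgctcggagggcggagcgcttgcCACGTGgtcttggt
Lamp1: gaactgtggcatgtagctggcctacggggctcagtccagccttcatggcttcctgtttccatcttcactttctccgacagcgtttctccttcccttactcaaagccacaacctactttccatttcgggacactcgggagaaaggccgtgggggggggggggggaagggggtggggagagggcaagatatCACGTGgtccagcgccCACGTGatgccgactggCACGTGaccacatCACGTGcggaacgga
Tpp1: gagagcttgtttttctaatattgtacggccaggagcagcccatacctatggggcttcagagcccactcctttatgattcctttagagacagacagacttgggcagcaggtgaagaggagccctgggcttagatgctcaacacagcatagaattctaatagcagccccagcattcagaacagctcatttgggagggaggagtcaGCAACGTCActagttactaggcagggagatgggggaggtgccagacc

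The libraries held 19191032 to 23888401 counts, and values are given below as CPM (TMM-normalized counts scaled to a common library size), library by library in the order of their numbers. *Xbp1*, the targeted gene, had 194, 200.3 and 221 CPM in chow-fed fl/fl libraries and 95.7 and 128 CPM in chow-fed LKO libraries, and on the HFS diet 301, 295 and 242 CPM against 117, 97.3 and 135 CPM. Its log2 fold change was -0.87 on chow (adjusted p = 0.018) and -1.26 on the HFS diet (adjusted p = 0.0025), and the chow call was lost without the first (adjusted p = 0.092) or the second (adjusted p = 0.059) chow-fed LKO library, as well as with library totals, with only the groups compared and with a replicate block by title numbers. These counts are per gene and are not limited to the exon that the paper measured. By qPCR of that single *Xbp1* exon, the paper found almost no expression in hepatocytes of chow-fed LKO mice. The CPM of *Xbp1* are therefore not a measure of how complete the deletion was. The summed level of 12 hepatocyte markers on chow was 145500 to 178700 CPM in fl/fl and 46040 to 79760 CPM in LKO libraries, and on the HFS diet 128000 to 145700 CPM and 64350 to 94760 CPM. In every LKO library it was below every fl/fl library, and the second chow-fed LKO library was the lowest. Markers of other cells were low: 12 macrophage markers summed to 21.6 to 104.9 CPM, 12 endothelial markers to 34.1 to 178 CPM, 12 stellate cell markers to 7.55 to 53.3 CPM, 10 cholangiocyte markers to 18.7 to 36.9 CPM and 8 lymphocyte markers to at most 3.30 CPM. The 10 immediate early genes summed to 426 to 794 CPM. In bulk RNA, fewer cells of a type and less RNA per cell cannot be told apart.

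Of the 10 autophagy genes, *Atg12* alone differed between genotypes past an adjusted p of 0.05, and only on the HFS diet, where it was 1.47-fold higher in LKO hepatocytes. On chow, 0 of the 10 passed edgeR's quasi-likelihood test, while 4.75% of all genes tested did, and DESeq2 called 1, *Atg5*. An unadjusted p under 0.05 was reached by 2 of the 10 on chow, beside 19.25% of all genes. On the HFS diet 1 of 10 passed, beside 4.08% of all genes, and DESeq2 also called 1. There 4 of the 10 had an unadjusted p under 0.05, beside 17.45% of all genes. The libraries of the 2 genotypes did not overlap for 3 of the 10 genes on chow, beside 31.3% of all genes, and for 5 of 10 on the HFS diet, beside 26.1% of all genes. The median log2 fold change of the 10 genes was 0.13 on chow and 0.04 on the HFS diet, and that of all genes was 0.0024 and 0.0083. The 95% confidence intervals of the genotype effect lay within 0.561- to 1.81-fold on chow and within 0.504- to 1.81-fold on the HFS diet for every one of the 10 genes.

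**Figure D1:**
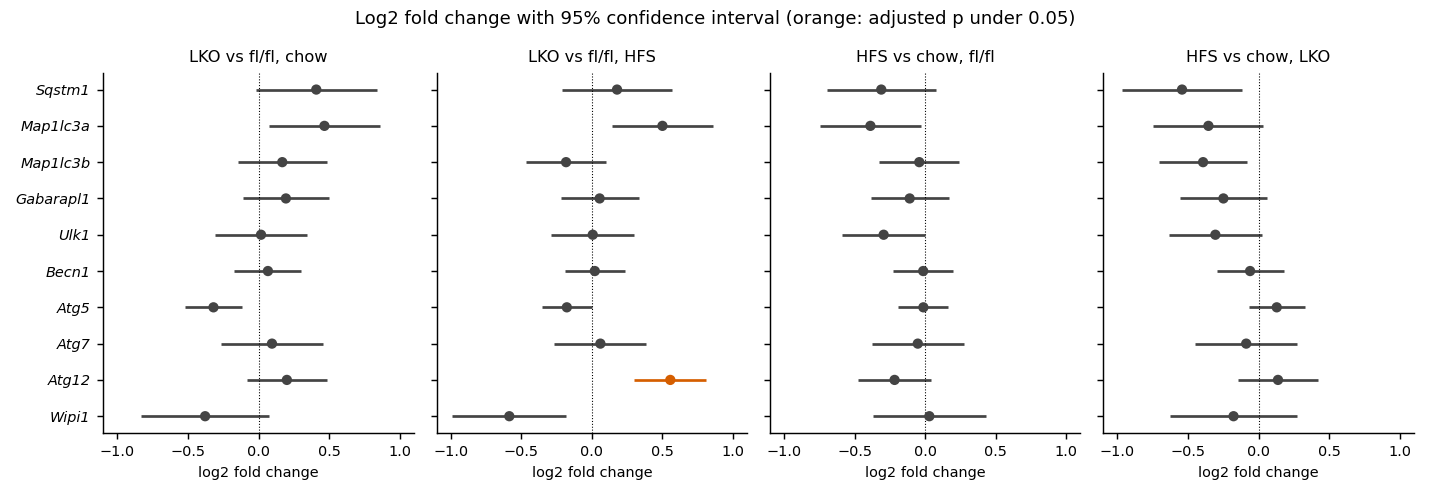
Log2 fold change (x axis) of the 10 autophagy genes (y axis) in the 4 comparisons, with its 95% confidence interval from edgeR's quasi-likelihood fit of 11 libraries; the dotted line marks no difference. *Atg12* on the HFS diet, 0.56, is the single value past an adjusted p of 0.05 (orange).

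Among the genes that start autophagosome formation, levels of *Ulk1* and *Becn1* were close in the 2 genotypes. *Ulk1* (ENSMUSG00000029512, chromosome 5, 110784488 to 110810097, minus strand, GRCm38) had 176, 158 and 157 CPM in chow-fed fl/fl libraries and 169.8 and 161 CPM in chow-fed LKO libraries, and on the HFS diet 133, 134 and 133 CPM against 162, 129.7 and 109.6 CPM. The groups overlapped on both diets, and the 3 HFS-fed LKO libraries were far more spread than the 3 controls. The fold was 1.01 on chow (95% confidence interval 0.806 to 1.27) and 1.00 on the HFS diet (0.819 to 1.23). *Becn1* (ENSMUSG00000035086, chromosome 11, 101285952 to 101302286, minus strand), which encodes Beclin 1, had 44.0, 45.4 and 54.3 CPM against 49.8 and 50.5 CPM on chow, and 46.6, 46.2 and 49.5 CPM against 49.4, 46.2 and 48.7 CPM on the HFS diet. Its 11 libraries spanned the narrowest range, relative to their mean, of the 10 genes, with folds of 1.047 on chow (0.888 to 1.23) and 1.01 on the HFS diet (0.875 to 1.18). *Wipi1* (ENSMUSG00000041895, chromosome 11, 109573331 to 109611967, minus strand), whose product binds the phosphoinositide made by the Beclin 1 complex, had 38.4, 30.05 and 23.1 CPM in chow-fed fl/fl libraries and 20.3 and 26.65 CPM in chow-fed LKO libraries. On the HFS diet it had 33.8, 33.4 and 26.1 CPM in fl/fl libraries and 22.6, 21.3 and 18.4 CPM in LKO libraries, every one of which was below every control. The log2 fold change was -0.59 on the HFS diet (SE 0.18, adjusted p = 0.108) and -0.38 on chow (SE 0.21, adjusted p = 0.354). The HFS value passed with only the groups compared (-0.58, adjusted p = 0.038) and without the filter on low counts (-0.58, adjusted p = 0.0032).

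In the conjugation machinery, *Atg12* and *Atg5*, whose products are joined to each other, had estimates of opposite sign after TMM normalization, though not when scaled to library totals, where that of *Atg5* was 0.0081 on chow and 0.08 on the HFS diet. *Atg12* (ENSMUSG00000032905, chromosome 18, 46730144 to 46741580, minus strand) had 33.5, 31.9 and 32.2 CPM in HFS-fed fl/fl libraries and 47.1, 49.5 and 46.9 CPM in HFS-fed LKO libraries. The groups were narrow and well apart, and the log2 fold change was 0.56 (SE 0.12, fold 1.47, 95% confidence interval 1.23 to 1.76, adjusted p = 0.024). Its chow-fed libraries had 32.1, 36.2 and 45.2 CPM in fl/fl and 41.8 and 45.1 CPM in LKO hepatocytes, which overlapped (log2 fold change 0.20, SE 0.13, adjusted p = 0.442). The HFS call was lost, with nearly the same fold, when a single HFS library was left out, with adjusted p of 0.075, 0.083 and 0.090 without fl/fl library 1, 2 and 3 and of 0.097 and 0.060 without LKO library 2 and 3. On the HFS diet the summed macrophage markers had 42.0 to 59.4 CPM in fl/fl and 59.6 to 104.9 CPM in LKO libraries, without overlap. The summed endothelial markers had 106.7 to 178 CPM in fl/fl and 88.4 to 142 CPM in LKO libraries. On chow the macrophage sum was 21.6 to 93.7 CPM in fl/fl and 25.4 to 36.8 CPM in LKO libraries. The part of these other cells in the result was not tested. Of the 4716 words of 50 bases in the longest *Atg12* coding transcript, 24 (0.509%) also occur in transcripts of another gene.

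*Atg5* (ENSMUSG00000038160, chromosome 10, 44268358 to 44364291, plus strand) had 65.4, 67.7 and 64.8 CPM in chow-fed fl/fl libraries and 53.8 and 51.9 CPM in chow-fed LKO libraries, and on the HFS diet 65.1, 67.55 and 63.4 CPM against 58.7, 56.6 and 58.2 CPM. The genotypes did not overlap on either diet, with small spreads within each group. The difference did not pass the threshold on chow (log2 fold change -0.32, SE 0.09, adjusted p = 0.071) or on the HFS diet (-0.18, SE 0.08, adjusted p = 0.282), although DESeq2 called it on chow (adjusted p = 0.012). Scaling to library totals, under which its sign changed, shifted the median of all genes by 0.33 on chow and 0.26 on the HFS diet on the log2 scale, and all values here are relative to the TMM centre. *Atg7* (ENSMUSG00000030314, chromosome 6, 114643097 to 114860614, plus strand), the activating enzyme of both conjugation reactions, had 70.45, 67.5 and 49.7 CPM against 70.9 and 62.7 CPM on chow, and 55.6, 61.85 and 63.4 CPM against 53.7, 72.8 and 62.0 CPM on the HFS diet. Its groups overlapped, with folds of 1.07 (0.830 to 1.37) and 1.04 (0.832 to 1.31).

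**Figure D2:**
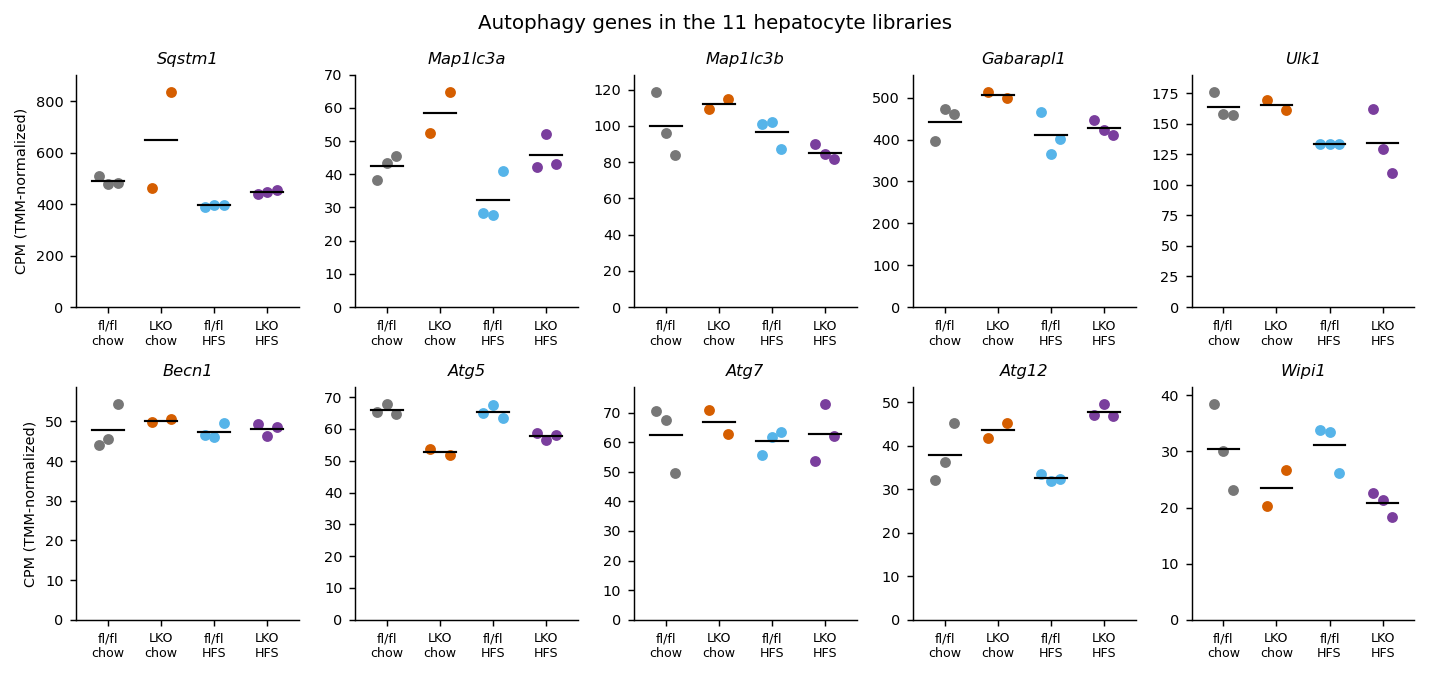
TMM-normalized CPM (y axis, from 0) of each autophagy gene in the 11 libraries by genotype and diet (x axis); points are libraries and bars are group means. For *Atg12* the HFS-fed LKO libraries, 46.9 to 49.5 CPM, sit above the HFS-fed fl/fl libraries, 31.9 to 33.5 CPM, and a single chow-fed LKO library stands out for *Sqstm1* at 837 CPM.

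Of the ATG8 family, 0 of the 3 genes passed edgeR's test on either diet, with *Map1lc3a* at an unadjusted p under 0.05 on both diets and none called by DESeq2. *Map1lc3a* (ENSMUSG00000027602, chromosome 2, 155276297 to 155278073, plus strand), which encodes LC3A, had 38.4, 43.3 and 45.6 CPM in chow-fed fl/fl libraries and 52.35 and 64.9 CPM in chow-fed LKO libraries, and on the HFS diet 28.5, 27.6 and 41.1 CPM against 42.1, 52.25 and 43.1 CPM. Every LKO library was above every control on the same diet. The log2 fold changes were 0.47 on chow (SE 0.18, adjusted p = 0.172) and 0.50 on the HFS diet (SE 0.16, adjusted p = 0.120), neither past the threshold. Without the third HFS-fed fl/fl library, the highest of the controls, the HFS value was 0.71 with an adjusted p of 0.036. Without the filter on low counts *Map1lc3a* passed on both diets (adjusted p = 0.034 and 0.0099), as it did with library totals (adjusted p = 0.017 and 0.021). *Map1lc3b* (ENSMUSG00000031812, chromosome 8, 121590361 to 121598760, plus strand), which encodes LC3B, the usual marker of autophagosomes, had 119, 96.2 and 84.1 CPM against 109 and 115 CPM on chow, and 101, 102 and 87.1 CPM against 89.9, 84.3 and 81.8 CPM on the HFS diet. Its groups overlapped on both diets, with folds of 1.12 on chow (0.903 to 1.40) and 0.881 on the HFS diet (0.724 to 1.07). *Gabarapl1* (ENSMUSG00000030161, chromosome 6, 129533160 to 129542346, plus strand) had 396, 472 and 461 CPM in chow-fed fl/fl libraries and 514 and 499 CPM in chow-fed LKO libraries, above all 3 controls. On the HFS diet it had 465, 366 and 400.4 CPM against 446, 423 and 411 CPM, which overlapped. Its folds were 1.14 (0.924 to 1.42) and 1.04 (0.858 to 1.26).

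*Sqstm1* (ENSMUSG00000015837, chromosome 11, 50199366 to 50210827, minus strand), which encodes the cargo receptor p62, had 509.6, 478 and 482 CPM in chow-fed fl/fl libraries and 464 and 837 CPM in chow-fed LKO libraries. The first chow-fed LKO library was below every control and the second was far above them, so the estimate rested on a single mouse. The log2 fold change of 0.41 (SE 0.20, adjusted p = 0.283) became -0.08 (adjusted p = 0.926) without the second library and 0.77 (adjusted p = 0.011) without the first. That second library was also the highest of the 11 for *Ddit3*, which encodes the stress factor CHOP, at 132.5 CPM, and for *Trib3*, a pseudokinase induced under stress, at 117 CPM, and the lowest for the summed hepatocyte markers. Whether these moved together for a shared reason was not tested. On the HFS diet *Sqstm1* had 389.9, 397 and 397 CPM in fl/fl libraries and 438, 448 and 453 CPM in LKO libraries. All 3 LKO libraries were higher, and the fold was 1.131 (0.865 to 1.48, adjusted p = 0.683; edgeR estimates 1 spread for all 4 groups, the chow-fed LKO pair included).

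**Figure D3:**
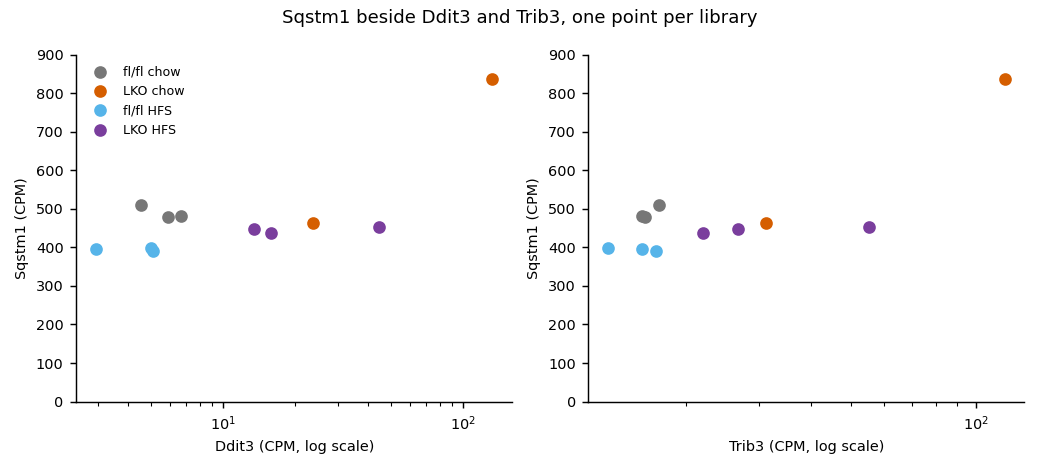
*Sqstm1* (y axis, CPM from 0) against *Ddit3* (left) and *Trib3* (right; x axes in CPM on a log scale), with a point for each of the 11 libraries coloured by genotype and diet. The second chow-fed LKO library is apart from the others, at 837 CPM of *Sqstm1*, 132.5 CPM of *Ddit3* and 117 CPM of *Trib3*.

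The HFS diet moved 0 of the 10 genes past the threshold in either genotype. In fl/fl hepatocytes 0.428% of all genes passed edgeR's test, DESeq2 called 0 of the 10, and 9 of the 10 estimates were negative. There 1 of the 10 (*Map1lc3a*, log2 fold change -0.39) had an unadjusted p under 0.05, beside 8.945% of all genes. The diets did not overlap for *Sqstm1* (log2 fold change -0.31, adjusted p = 0.680) and *Ulk1* (-0.29, adjusted p = 0.559), both lower on the HFS diet, 2 of 10 genes beside 13.7% of all genes. In LKO hepatocytes 0.0601% of all genes passed, and DESeq2 called 0 of the 10. An unadjusted p under 0.05 was reached by 2 of the 10 (*Sqstm1*, -0.54, and *Map1lc3b*, -0.39), beside 12.65% of all genes. The median of the 10 was -0.21 against -0.0027 for all genes. Here 5 genes were lower on the HFS diet in every library (*Sqstm1*, *Map1lc3a*, *Map1lc3b*, *Gabarapl1* and *Becn1*) and 2 were higher (*Atg5* and *Atg12*), beside 31.1% of all genes without overlap. Without the first chow-fed LKO library *Sqstm1* fell by 0.91 on the log2 scale (adjusted p = 0.040), and without the second it fell by 0.046 (adjusted p = 0.982). These comparisons share libraries with the genotype comparisons, and the summed markers of other cells also differed by diet, endothelial markers from 34.1 to 43.2 CPM in the chow-fed LKO pair and from 88.4 to 142 CPM in the HFS-fed LKO libraries; their part in the result was not tested.

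The interaction of genotype and diet passed the threshold for 0 of the 10 genes and for 0.0% of all genes in edgeR, where 816 genes, 0 of them among the 10, had an unadjusted p under 0.05; DESeq2 called 31 genes and 0 of the 10. *Atg12*, with 0.20 on chow and 0.56 on the HFS diet, had an interaction of 0.35 on the log2 scale (SE 0.18, adjusted p = 0.818). Its genotype effect was therefore not shown to differ between the diets. The interaction was -0.35 for *Map1lc3b* (SE 0.19, adjusted p = 0.829) and between -0.23 and 0.14 for the other 8 genes.

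Between genes, levels were compared as CPM per kilobase of the longest coding transcript. *Gabarapl1* and *Sqstm1* were the most abundant of the 10, at 242.5 ± 25.3 and 180.0 ± 46.4 CPM per kilobase (SD, n = 11 libraries), and their ranges overlapped. *Map1lc3a* (39.2 ± 9.55), *Map1lc3b* (37.0 ± 4.96), *Ulk1* (28.3 ± 3.97) and *Atg5* (26.01 ± 2.38) followed, each with a range that overlapped that of its neighbour in the order. *Atg7* (16.1 ± 1.91) lay below all of these in every library, and *Becn1* (11.1 ± 0.664), *Atg12* (8.42 ± 1.47) and *Wipi1* (8.01 ± 1.93) were lowest, with *Becn1* and *Atg12* and again *Atg12* and *Wipi1* overlapping in range. Compared within each library, *Map1lc3b* was above *Ulk1* and *Becn1* above *Atg12* in 11 of 11, and *Gabarapl1* above *Sqstm1* in 10. *Map1lc3a* was above *Map1lc3b* in 8, *Ulk1* above *Atg5* in 7 and *Atg12* above *Wipi1* in 6. In mean CPM, all 10 lay between percentile 65.4 and percentile 97.8 of the genes tested. With the length of all exons of a gene in place of its longest coding transcript, *Map1lc3b* moved from place 4 to place 6 of the order and *Atg12* from place 9 to place 10. *Atg5* moved from place 6 to place 4 and *Wipi1* from place 10 to place 9. Some reads may be shared with a gene on the opposite strand if strand was not used in counting, since exons of *Sqstm1*, *Map1lc3b*, *Gabarapl1* and *Becn1* overlap those of *Mrnip*, *Zcchc14*, *1700101I11Rik* and *Cntd1*.

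The genes whose log2 CPM followed that of *Atg12* most closely over the 11 libraries were *Acer3*, an alkaline ceramidase (Pearson r = 0.945), *Nhlrc3* (0.945) and *Nap1l1*, a histone chaperone (0.942), chosen as the 3 highest of all genes tested, so these values are a description. Their log2 fold changes on the HFS diet were 0.68 (adjusted p = 0.035), 0.35 (adjusted p = 0.052) and 0.73 (adjusted p = 0.046). The libraries are grouped by genotype and diet, which these correlations share.

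The rest of the pathway was read from 10 lists that hold, beside the 10 autophagy genes, 110 other genes, of which 108 were tested. On chow 2 of them rose and 4 fell, and on the HFS diet again 2 rose and 4 fell, 6 of 108 in each case, beside 4.75% and 4.08% of all genes. Between diets edgeR called 0 of the 108 in either genotype, and DESeq2 called 1 in each (*Foxo1* and *Epg5*). An unadjusted p under 0.05 was reached by 8 in fl/fl and 16 in LKO, beside 8.945% and 12.65% of all genes. Among the genotype calls, scaling to library totals gave 30 on chow with 28 higher and 17 on the HFS diet with 13 higher, so this split depends on the scaling. The calls were in the lysosome, ER-phagy and regulator lists. In the conjugation list *Atg12* was the single call of 11 genes, and the lists of the ULK complex (5 genes tested), the lipid kinase complex (8), lipid transfer (10), the ATG8 family (5), cargo receptors (11) and fusion (14) held 0 calls by edgeR on either diet. Of their 53 tested genes, which include some of the 10, 5 on chow and 10 on the HFS diet had an unadjusted p under 0.05. These counts, beside 19.25% and 17.45% of all genes, include *Map1lc3a* on both diets and *Wipi1* on the HFS diet. DESeq2 called 1 (*Gabarap*) and 2 (*Gabarap* and *Atg13*). Medians of these 7 lists lay between -0.07 and 0.17 on chow and between -0.14 and 0.05 on the HFS diet. In the lists with 0 calls the smallest p values belonged to *Atg13* (HFS diet, log2 fold change -0.44, adjusted p = 0.084), *Pik3r4* (HFS diet, -0.40, adjusted p = 0.143), *Wipi1*, *Gabarap* (chow, -0.38, adjusted p = 0.075), *Calcoco1* (HFS against chow in LKO, -0.34, adjusted p = 0.290) and *Epg5* (HFS against chow in LKO, -0.76, adjusted p = 0.196). *Gabarap*, the founder of the GABARAP family, was lower in every LKO library, at 243, 237.5 and 255 CPM against 192 and 183 CPM on chow and at 229.5, 231 and 228 CPM against 187, 172 and 197 CPM on the HFS diet.

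**Figure D4:**
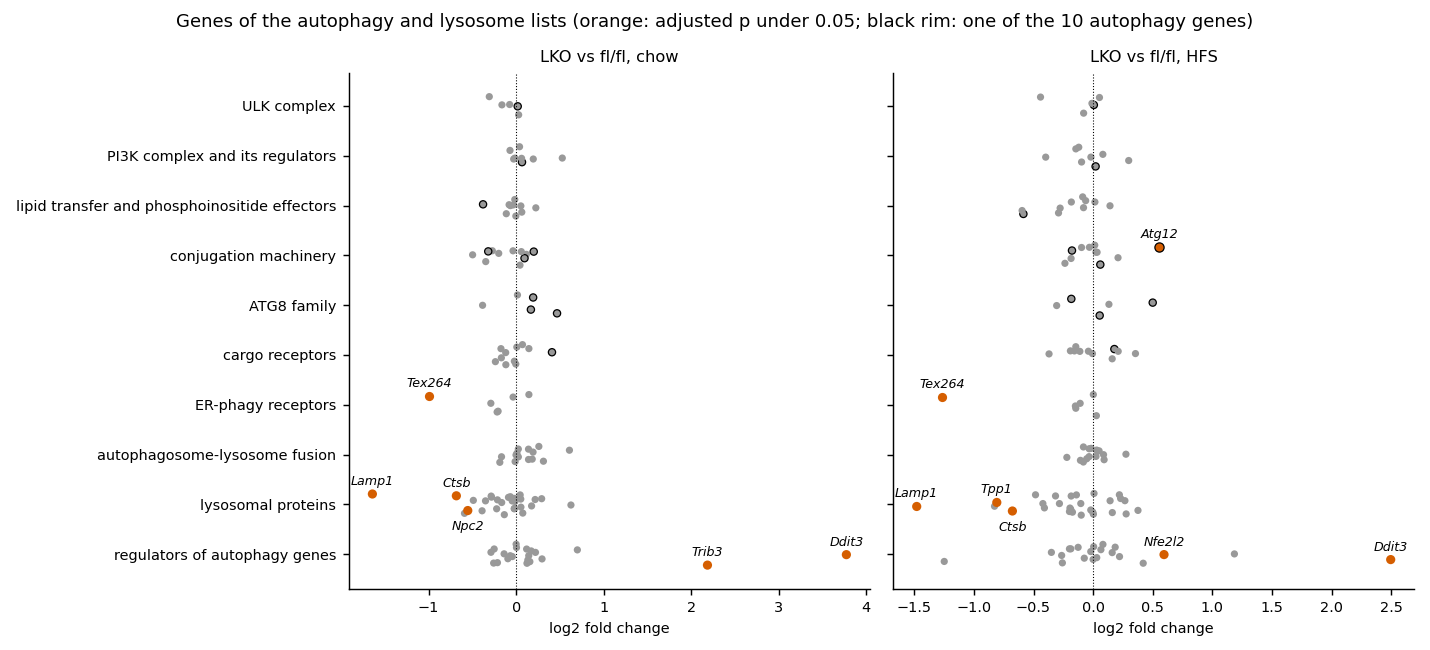
Log2 fold change between genotypes (x axis, left chow, right HFS diet) of every tested gene in the 10 lists (y axis; vertical scatter within a list has no meaning). Orange points passed an adjusted p of 0.05, such as *Lamp1* at -1.64 on chow and -1.48 on the HFS diet, and black rims mark the 10 autophagy genes, which lie between -0.59 and 0.56.

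Of 28 lysosomal proteins, 3 fell and 0 rose on each diet, beside 4.75% on chow and 4.08% on the HFS diet of all genes called in either direction. The median of the 28 was -0.08 on chow and -0.16 on the HFS diet, and that of all genes was 0.0024 and 0.0083. The summed hepatocyte markers were lower in the same libraries, and their part in these results was not tested. *Lamp1*, a major glycoprotein of the lysosomal membrane, had 647, 752 and 624 CPM in chow-fed fl/fl libraries and 238.5 and 193 CPM in chow-fed LKO libraries, and on the HFS diet 626, 671 and 695 CPM against 254, 170.2 and 290.1 CPM. The genotypes were far apart on both diets, with log2 fold changes of -1.64 on chow (SE 0.22, adjusted p = 0.0036) and -1.48 on the HFS diet (SE 0.19, adjusted p = 0.0025), and the call held in 18 of 18 alternatives on each diet. *Ctsb*, the protease cathepsin B, had 615, 699 and 549.7 CPM against 433 and 341 CPM on chow, and 637, 701 and 667 CPM against 427.5, 429 and 397 CPM on the HFS diet. It fell by 0.68 on the log2 scale on both diets (adjusted p = 0.029 and 0.019), but the call was lost on chow without fl/fl library 1 or 2 or LKO library 2 of the chow-fed mice (adjusted p up to 0.266) or fl/fl library 3 of the HFS-fed mice, and with library totals, only the groups compared or either replicate block, and on the HFS diet in 5 of 6 fits without 1 library (all but that without LKO library 1; adjusted p up to 0.076). *Npc2*, which carries cholesterol out of the lysosome, fell by 0.55 on chow (adjusted p = 0.034), which was lost without fl/fl library 1 or 2 or LKO library 2 of the chow-fed mice (adjusted p up to 0.305), or without fl/fl library 1 or 3 of the HFS-fed mice, and with library totals, only the groups compared or either replicate block; on the HFS diet its value was -0.42 (adjusted p = 0.065). *Tpp1*, a lysosomal peptidase, had 131.5, 122 and 121 CPM in HFS-fed fl/fl libraries and 73.9, 70.4 and 69.7 CPM in HFS-fed LKO libraries, and fell by 0.81 on the log2 scale (adjusted p = 0.0037); on chow its value was -0.49 (adjusted p = 0.055).

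Among the ER-phagy receptors, which bring endoplasmic reticulum into autophagosomes, the median of the 6 tested was -0.21 on chow and -0.13 on the HFS diet. *Tex264* was their single call on each diet, beside 4.75% and 4.08% of all genes. It had 82.0, 104.3 and 87.2 CPM in chow-fed fl/fl libraries and 51.75 and 39.9 CPM in chow-fed LKO libraries, and on the HFS diet 100.3, 91.0 and 123.9 CPM against 46.5, 38.0 and 46.8 CPM. It fell by 0.99 on the log2 scale on chow (adjusted p = 0.011) and by 1.26 on the HFS diet (adjusted p = 0.0025), and the chow call was lost without the second LKO library (adjusted p = 0.127). Of 21 regulators of autophagy genes, 2 rose and 0 fell on each diet, beside the same 4.75% and 4.08% of all genes. The median of this list was 0.12 on chow and 0.0044 on the HFS diet. For *Ddit3* (*Chop*), the paper's qPCR of hepatocytes showed no significant genotype difference on chow and a higher level in LKO on the HFS diet. The *Ddit3* call on chow given here therefore differs from that qPCR. *Ddit3* had 4.52, 5.90 and 6.67 CPM in chow-fed fl/fl libraries and 23.6 and 132.5 CPM in chow-fed LKO libraries, and on the HFS diet 5.10, 2.95 and 4.996 CPM against 15.85, 13.5 and 44.5 CPM. Every LKO library was above every control, with log2 fold changes of 3.77 (adjusted p = 0.0098) and 2.50 (adjusted p = 0.048), and the call was lost on chow without LKO library 2 (2.04, adjusted p = 0.125) and on the HFS diet in 5 of 6 fits without 1 library (all but that without LKO library 1; adjusted p up to 0.168) and without any of the 3 chow-fed fl/fl libraries or with a replicate block by title numbers. *Trib3* rose by 2.19 on chow (adjusted p = 0.023), which was lost without any of the 3 fl/fl libraries or without the second LKO library (0.93, adjusted p = 0.394), and with only the groups compared; on the HFS diet its value was 1.19 (adjusted p = 0.167). *Nfe2l2*, which encodes the antioxidant factor NRF2, an activator of *Sqstm1* transcription, had 73.1, 66.0 and 72.9 CPM in HFS-fed fl/fl libraries and 104.6, 115 and 100.4 CPM in HFS-fed LKO libraries. It rose by 0.59 on the HFS diet (adjusted p = 0.019), which was lost without any of the 3 fl/fl libraries or without LKO library 2 (adjusted p up to 0.091), and had 0.16 on chow (adjusted p = 0.576).

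**Figure D5:**
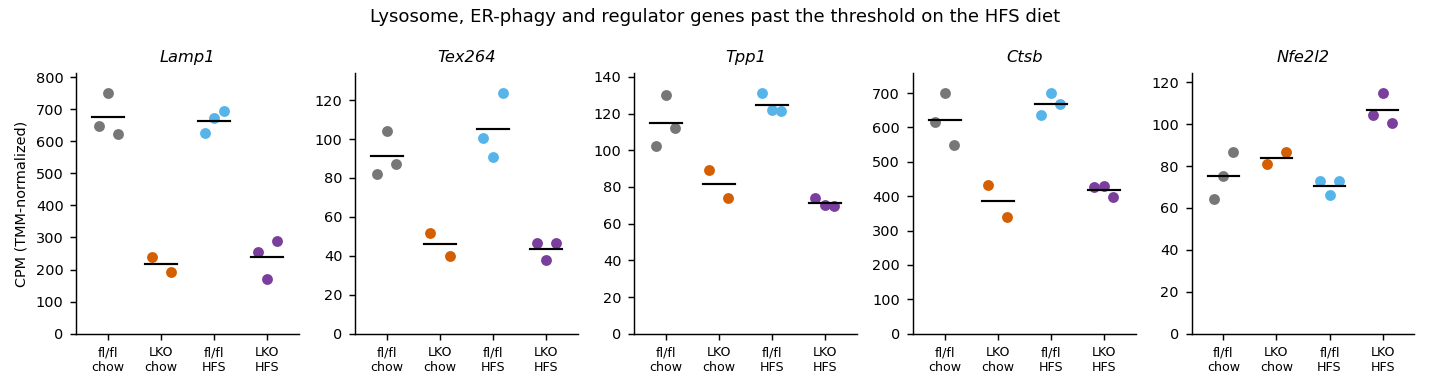
TMM-normalized CPM (y axis, from 0) of *Lamp1*, *Tex264*, *Tpp1*, *Ctsb* and *Nfe2l2* in the 11 libraries by genotype and diet (x axis); points are libraries and bars are group means. *Lamp1* lies at 170.2 to 290.1 CPM in the 5 LKO libraries and at 624 to 752 CPM in the 6 fl/fl libraries.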

How the data were processed

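The authors deposited a whole-number count of reads per Ensembl gene for each of 11 hepatocyte libraries, unnormalized. The paper's methods name kallisto with tximport, while the submitters' processing notes list cutadapt 1.13, STAR, HTSeq 0.6.1p1, DESeq2 and mm10, so the counting tool and its use of strand are not settled here; reads were single-end, 50 bases long. Kit descriptions also differ, stranded mRNA in the methods and total RNA in the labels. The 37 mitochondrially encoded genes were at 0 in every library. Symbols came from GENCODE M21 (GRCm38), which held 54079 of 54232 identifiers. The 10 genes were taken by name, and they, the wider lists and the marker lists were chosen with earlier results of these data known; counts over the lists are descriptions without a test. Wider genes are named where past the threshold in a comparison (the 3 with the smallest p in a list with more), otherwise the 1 with the smallest p in a list, together with the 3 genes most correlated with an autophagy gene that passed.

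In R 4.3.3, edgeR 4.0.16 kept the genes that filterByExpr passed at a minimum count of 10, scaled libraries by TMM and fitted the 4 groups over all 11 libraries with its quasi-likelihood test, with Benjamini-Hochberg adjustment over 13303 genes and a threshold of 0.05. Confidence intervals are unadjusted. Alternatives were DESeq2 1.42.0, RLE size factors, library totals, no filter and only the groups compared. Further ones were replicate blocks and each of the 11 libraries left out in turn. The blocks used title numbers or file-name numbers, which are 2 and 3 for the second chow-fed LKO library. Chi-square over its degrees of freedom between replicates was 27.95 to 101.6, far above counting error alone, so no counting intervals are given. On simulated counts with 100 genes changed 2-fold and 100 changed 4-fold, edgeR recovered 54 and 71 in the chow genotype comparison (12955 genes, 8 false calls) and 63 and 84 in that on the HFS diet (12904 genes, 7 false calls). The changed genes of the simulation were drawn at random from all genes tested. Promoters came from RefSeq.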

Additional observations from a re-analysis of the deposited data

How the results depend on the processing

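Of the values of the 10 genes under the alternatives, 843 stayed on their side of the threshold, 18 moved by more than 1 standard error, 15 passed the threshold, 5 lost it and 9 changed sign by more than the standard error. The 843 lay within 1 standard error, except where a value past the threshold in both fits moved further, as *Atg12* did on the HFS diet (0.56, up to 0.81). Scaled to library totals, 6 of the 10 autophagy genes passed on chow and 2 on the HFS diet, with 30 and 17 of the wider genes, and the log2 fold change of *Atg5* was 0.0081 on chow and 0.081 on the HFS diet and that of *Map1lc3b* on the HFS diet 0.073. Without the filter on low counts, 1 of the 10 passed on chow and 3 on the HFS diet, with 10 wider genes on the HFS diet, 4 and 5 in the diet comparisons of *Xbp1* fl/fl and *Xbp1* LKO, and 2 in the interaction. DESeq2 called 1 of the 10 on chow and 1 wider gene in each diet comparison. Fitting only the groups compared gave 2 of the 10 on the HFS diet, with 3 wider genes on chow and 11 on the HFS diet. Leaving out each library in turn gave 0 to 1 of the 10 in either genotype comparison and in the diet comparison of *Xbp1* LKO, and 1 to 10 wider genes on chow, 3 to 9 on the HFS diet and 0 to 1 in the diet comparison of *Xbp1* LKO. Over the fits without 1 library, the value of *Sqstm1* ran from -0.081 to 0.77 on chow and from -0.60 to 0.26 in the interaction, the ends being those without LKO library 2 and 1 of the chow-fed mice, and that of *Wipi1* between diets in *Xbp1* LKO from -0.37 to 0.042 without library 1 and 2. On the HFS diet *Ulk1* ran from -0.15 to 0.13, and between diets in *Xbp1* fl/fl *Map1lc3b* ran from -0.15 to 0.10 and *Becn1* from -0.072 to 0.086. Where 1 chow-fed *Xbp1* LKO library remained, it was assumed to vary like the other groups. The cause of these changes was not tested, apart from the shift of all genes by the library totals. Whether the replicate numbers pair the libraries cannot be told from groups of 2 or 3 libraries. Deviations from the group means had correlations of -0.199 to 0.231 between libraries with the same title number. Between libraries with different title numbers they were -0.267 to 0.333. With a replicate block 0 of the 10 passed on chow and 1, *Atg12*, on the HFS diet, and the block changed no other call among the 10. Of the wider genes, 4 on chow and 5 or 6 on the HFS diet passed with a block. Cohorts this small limit what can be seen: edgeR recovered 54 of 100 simulated 2-fold changes on chow. Those 100 were drawn from genes tested at any level. Their share is therefore not that of the 10 autophagy genes, which lay between percentile 65.4 and percentile 97.8 in mean CPM.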
